A study of Anas platyrhynchos with 6 samples.

Results

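The authors listed 6990 newly assembled loci in a study of duck liver RNA. Of these, 3417 (48.9%) had exactly 1 transcript model and at least 2 exons. Each of them thus has a single splicing pattern in the assembled models, and whether other forms exist was not tested. They were chosen on the exon table alone, by the number of transcripts and of exon lines per locus, out of 23440 features in the expression table. The liver samples came from Shanma laying ducks (Anas platyrhynchos, variety domestica), a domestic egg-laying duck. From a study population of 176 birds picked at 150 days of age, one group was kept at 5 ± 5 ppm of ammonia (low ammonia) and the other at 75 ± 5 ppm (high ammonia) for 30 days, from day 200 to day 230, on the same diet, in separate rooms. The room and the ammonia level therefore cannot be told apart. Each group had 3 libraries, and the labels do not tie them to different birds. Their total counts, inferred from the FPKM values, lay between 13415827 and 23584934. The spread that p-values measure here is that between these libraries, which may be technical. In whole liver, fewer cells of a type and less RNA per cell cannot be told apart. Liver markers could not be checked, because none of the identifiers could be paired with a gene symbol.

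An assembler proposes a new locus where aligned reads form exons outside the gene models it was given, and spliced reads that bridge neighbouring exons set the intron between them. In such sets a spliced model is usually taken as better evidence of a processed RNA than an unspliced one, since an unspliced model can also come from genomic DNA or from precursor RNA. Introns of vertebrate genes are removed by the spliceosome, which needs a minimum distance between its sites, and very short gaps in an alignment can also stand for small deletions. New loci of this kind commonly include noncoding RNAs, extended or split ends of known genes and genes on scaffolds that the annotation left empty. Which of these a locus is was not analysed here, and neither was its overlap with annotated genes.

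Most of the single-transcript loci were small. Of the 3417 loci, 2419 (70.8%) had 2 exons, 687 (20.1%) had 3, 197 (5.77%) had 4, and 114 (3.34%) had 5 or more, up to 20. The summed exon length ranged from 170 to 25606 bases, with a median of 1365 and quartiles of 831 and 2339. The span from first to last base had a median of 2838 bases and reached 240502. The 2 strands were used about equally, with 1682 loci on plus and 1735 on minus, over 1464 scaffolds. Positions are those of the exon table, counted from 1, on scaffolds of a build that the sources used here do not name. On their scaffold, 518 loci were the only newly assembled one, and 98 began within the first 5 bases of the scaffold.

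Exons differed by their place in the transcript. The last exon (3′) had a median of 820 bases and the first exon (5′) a median of 221, and the last was the longer of the 2 in 2370 loci (69.4%). The 1542 internal exons were shorter, with a median of 120 bases and quartiles of 82 and 179. Over all 8376 exons the median was 316 bases. The ends of some models were very short: 66 of 6834 terminal exons had under 10 bases and 27 had 1 base. Of the internal exons, 36.7% had a length divisible by 3, beside 35.6% of introns under 50 bases and 34.1% of longer introns.

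The 4959 introns had a median of 476 bases and quartiles of 101 and 1938, and ran from 20 to 169707 bases. Introns of 2-exon loci were shorter, with a median of 216 bases against 751 in loci of 3 or more exons. Introns under 50 bases numbered 610 (12.3%). They lay in 574 loci (16.8%), and in 489 of these every intron was under 50 bases. Of the introns under 50 bases 35.6% were divisible by 3, and of the longer ones 34.1%. The 3180 newly assembled loci with several transcripts, at least 1 of them spliced, had 17086 distinct introns with a median of 1267 bases, of which 579 (3.39%) were under 50 bases. At the other end, 371 introns of the single-transcript loci (7.48%) had 10000 bases or more, against 2861 (16.7%) of those of loci with several transcripts. These are 1 value per intron with no replicate, so no test was made.

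**Figure D1:**
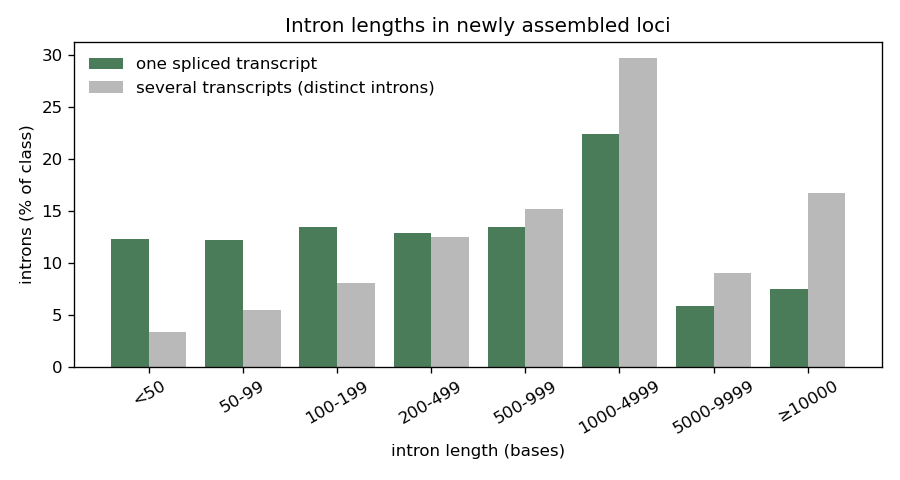
Bars give the share of introns (%) in each length class (bases) for newly assembled loci with one spliced transcript (4959 introns) and for those with several transcripts (17086 distinct introns). The share under 50 bases is 12.3% in the first class and 3.39% in the second.

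The share of loci at 0 in all libraries did not change steadily with exon number. It was 34.8% with 2 exons, 42.4% with 3, 36.0% with 4 and 21.1% with 5 or more. The median counts over the libraries were 5, 1, 3 and 8 in that order. Counts at the extremes of structure varied. The longest intron, of 169707 bases, belonged to Novel02388, a 2-exon locus with 272 bases of exon on the minus strand of scaffold KB742928.1 (967572 to 1137550), which had 6, 5 and 0 counts in the low ammonia libraries and 4, 6 and 2 in the high ammonia ones. Novel04634, with an intron of 146116 bases, had 2 counts in all, and Novel05793 (141439 bases) and Novel03027 (128929 bases) had none in any library. The locus with most exons was Novel00050, with 20 exons over bases 1619075 to 1628096 of the plus strand of KB742388.1. Its introns ran from 86 to 798 bases. Its values in FPKM, the count normalised to exon length and to the library total, were 0.0308, 0.135 and 0.0879 in low ammonia and 0.319, 0.270 and 0.109 in high ammonia, from 2 to 18 counts per library, with overlapping groups. Novel04861 (15 exons) had 31 counts over the 6 libraries and the 2 loci with 10 exons, Novel00261 and Novel01471, had 1 and 14. Novel05140, with 12 exons at 133203 to 155147 of KB744014.1, stood at 0.895, 1.20 and 1.02 FPKM in low ammonia and 0.940, 1.00 and 0.807 in high ammonia, with 51 counts or more in each library. The groups overlapped, at a log2 difference (high minus low ammonia) of -0.09 (SE 0.17), with a limma adjusted p of 0.828.

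In 12 loci the shortest intron had exactly 50 bases, the lowest length at or above the limit used here. The 3 of them with the lowest identifiers, Novel00084, Novel00508 and Novel00670, had 38, 260 and 20 counts over the 6 libraries, and of these 3 the second entered the test of ammonia. Novel00508 (228615 to 229211 of KB742482.1) stood at 3.64, 7.49 and 4.98 FPKM in low ammonia and 3.21, 2.45 and 2.85 in high ammonia. Its groups lay apart, but its log2 difference of -0.69 (SE 0.24) did not pass (limma adjusted p = 0.208).

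Detection was split between loci seen in every library and loci seen in none. A count of at least 1 was found in all 6 libraries for 1160 loci (33.9%), with a median of 129 counts over the libraries, and in no library for 1229 (36.0%). The other 1028 loci had a count in 1 to 5 libraries, most often in 1 (305 loci). By amount, 778 loci had 1 to 10 counts over the 6 libraries together and 183 had 1000 or more. For a locus with 1 kb of exon and no count, levels below 0.127 FPKM in the deepest and 0.224 FPKM in the shallowest library could not be told from 0, by counting error only. Which reads the models were assembled from is not given in the sources used here, so why a model has no count in these libraries was not tested.

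Per library, 1715, 1729 and 1588 loci had a count in low ammonia and 1649, 1586 and 1555 in high ammonia. These are 50.2%, 50.6% and 46.5% of the loci against 48.3%, 46.4% and 45.5%. The means were 1677 ± 77.7 and 1597 ± 47.9 (SD, n = 3), and the groups overlapped (exact permutation p = 0.2, 2-sided, where 0.1 is the smallest that 3 against 3 allows). The 2 deepest low ammonia libraries had the most loci, and with every library thinned by calculation to the total of the shallowest the means were 1573 ± 32.6 and 1537 ± 46.6 (exact permutation p = 0.4). Loci with at least 1 FPKM numbered 544, 559 and 557 in low ammonia and 519, 536 and 498 in high ammonia. At that level the groups did not overlap (exact permutation p = 0.1). The same count over all features is not given. The features tested for ammonia were also lower in high ammonia at the median, with a log2 difference of -0.13 and 66.3% of them below 0. That median was -0.009 with median-ratio scaling.

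**Figure D2:**
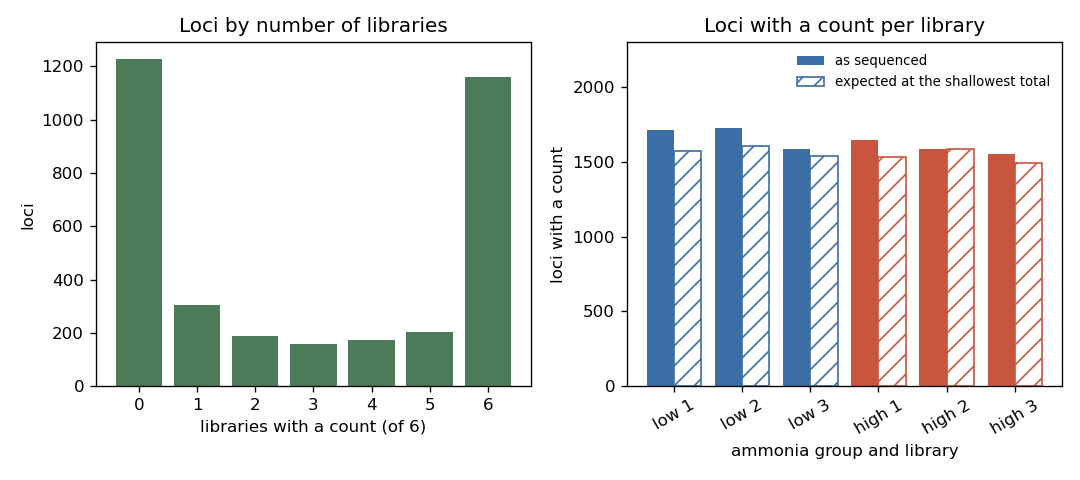
Left: number of loci with one spliced transcript by the number of libraries, of 6, in which they had a count. Right: loci with a count in each library (blue, low ammonia; red, high ammonia), as sequenced (filled) and as calculated at the total of the shallowest library (hatched). The classes of 0 and 6 libraries hold 1229 and 1160 loci, and the filled bars run from 1555 to 1729.

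Loci whose exons overlap those of a newly assembled locus on the opposite strand were detected less. Of the 3417 loci, 535 (15.7%) had such an overlap, and 0 overlapped exons of a newly assembled locus on their own strand. How models that overlap on the same strand were joined into loci is not given in the sources used here, so nothing is read from this 0. Among the 535, 333 (62.2%) were at 0 in all libraries, against 896 of 2882 (31.1%) without it. By library, from 22.4% to 26.9% of the overlapping loci had a count and from 49.7% to 55.4% of the others. The difference averaged -28.7 percentage points and was below 0 in 6 of 6 libraries (exact sign-flip permutation p = 0.03125, 2-sided, the smallest that 6 libraries allow). The same loci were compared in every library, so this p covers repetition over libraries and not the choice of loci. The comparison was not among those planned. The difference was also below 0 among loci of like length. It was -25.6 points for loci with over 1000 and up to 2000 bases of exon, and -39.4 points with over 2000 and up to 5000. The kit does not mark strand, so the counts of overlapping exons cannot be assigned to a strand, and how the authors treated counts that fell on both loci is not given in the sources used here. The same contrast was 42.4% against 28.5% at 0 in loci with several transcripts. Among the 377 loci with a single exon it was 57.1% of only 28 overlapping loci against 4.01% of 349.

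Exon length went with detection too. Of the 125 loci with up to 300 bases of exon, 9.60% were at 0 in all libraries, and their median was 309 counts over the 6 libraries. The share at 0 was highest above 1000 and up to 2000 bases (42.7% of 1222 loci, median 1 count) and was 24.6% in the 228 loci over 5000 bases (median 32 counts). Opposite-strand overlap was found in 10.8% and 46.9% of these 2 length classes, and without it the shares at 0 were 39.3% and 6.61%. Across the loci, length and total count had a Spearman rho of -0.0263, and length and mean FPKM, over the 2188 loci with a count, of -0.391, with length itself in the denominator of FPKM. Loci whose shortest intron was under 50 bases were at 0 in 26.7% (153 of 574), as were 141 of 282 loci whose shortest intron had 5000 bases or more. Among loci without overlap these shares were 13.2% and 48.6%. The 98 loci at the very start of a scaffold had a median of 288 counts and 10.2% at 0, against 3 counts and 36.7% for the rest. Their median exon length of 511 bases was also shorter than the 1389 of the rest. These are descriptions over loci that share libraries and depth.

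**Figure D3:**
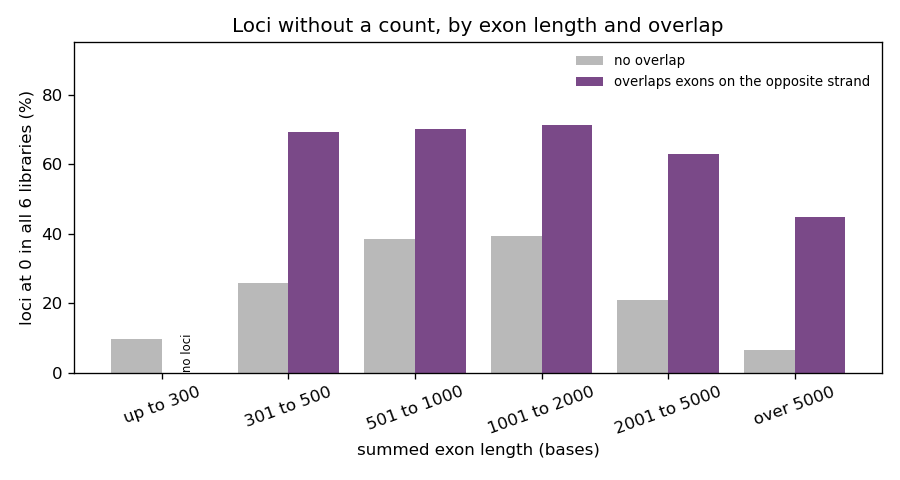
Share of loci (%) with no count in any of the 6 libraries, by summed exon length (bases), for loci without (grey) and with (purple) overlap of exons on the opposite strand. Above 1000 and up to 2000 bases the shares are 39.3% and 71.2%, and there are no overlapping loci of up to 300 bases.

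The single-transcript loci were of low abundance as a class. By mean FPKM over the 6 libraries, 938 loci (27.5%) lay above 0 and up to 0.1, 702 (20.5%) between 0.1 and 1, 357 (10.4%) between 1 and 10, 160 (4.68%) between 10 and 100, and 31 (0.907%) over 100. The median FPKM per library was between 0 and 0.00967, against 0.0115 to 0.0216 for loci with several transcripts and 0.147 to 0.209 for loci with a single exon. In 4 of the 6 libraries most of the single-transcript loci had no count, so that their median was 0 there. The share of loci with a value above 0 differed from that of loci with several transcripts by -4.22 percentage points on average. From that of single-exon loci it differed by -33.3 points, and it was lower in 6 of 6 libraries each (exact sign-flip permutation p = 0.03125). Here too the same loci were compared in every library, so the p covers repetition over libraries only. The order of the medians turned round among loci that reached 1 FPKM in at least 3 libraries, which made up 544 (15.9%), 557 (17.5%) and 73 (19.4%) of the 3 classes. Among those, the median log2(FPKM + 1) of the single-transcript loci lay above that of the others, by 0.448 and 0.905. Length divides FPKM, and over all their loci the 3 classes had median exon lengths of 1365, 2039.5 and 2202 bases. The part of length in these contrasts was not tested. Of single-transcript loci with up to 300 bases of exon, 75.2% reached 1 FPKM in at least 3 libraries, against 7.20% above 1000 and up to 2000. Of annotated genes, 64.1% reached this level.

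Together these loci held between 1.00% and 1.43% of all counts. The share was 1.15%, 1.37% and 1.43% in the low ammonia libraries and 1.05%, 1.10% and 1.00% in the high ammonia ones, or 1.32% ± 0.147 and 1.05% ± 0.0463 (SD, n = 3). The groups did not overlap (exact permutation p = 0.1, the smallest possible). A single locus, Novel00092, took 27.7%, 28.2% and 26.9% of these counts in low ammonia and 14.0%, 12.8% and 17.1% in high ammonia, and without it the shares were 0.955% ± 0.110 and 0.897% ± 0.0623 and overlapped (exact permutation p = 0.4). The 10 loci with most counts held 45.2% of the counts of the class.

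Novel00092 was also the most abundant of these loci. It lies on the plus strand of KB742399.1, with exons at 224919 to 224993 (75 bases) and 225127 to 225469 (343 bases) around an intron of 133 bases, and its nearest newly assembled neighbour is 83907 bases away. Its values were 7644, 9254 and 9214 FPKM in low ammonia, from 63614 to 83062 counts, and 3519.8, 3366 and 4115 FPKM in high ammonia, from 18875 to 30148 counts. Every high ammonia library was below every low ammonia one, by 2.37-fold in the means, and the locus fell by 1.25 on the log2 scale (SE 0.16, limma adjusted p = 0.0228).

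The next most abundant loci had groups that overlapped. Novel02311, with 3 exons at 1144364 to 1147161 of the minus strand of KB742899.1 and a first exon of 5 bases, stood at 789, 784 and 1135 FPKM in low ammonia and 727, 1070.3 and 691 in high ammonia. Novel06832 (190 to 531 of KB811726.1) and Novel06778 (1 to 354 of KB755192.1, from the first base of its scaffold) had 242 and 182 bases of exon, and means of 929.9 ± 104 and 698 ± 220 FPKM in low ammonia and 832 ± 81.3 and 832 ± 209 in high ammonia (SD, n = 3). The groups overlapped in all 3 loci. In the order named, their log2 differences were -0.13, -0.16 and 0.27 (limma adjusted p = 0.817, 0.646 and 0.665), and that of Novel02311 changed sign under median-ratio scaling, at 0.02.

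Novel00209 and Novel00210 are a pair on opposite strands of KB742431.1, with their first exons facing each other across 1158 bases. Novel00210 runs from 420425 down to 419879 on the minus strand with exons of 434 and 5 bases, and Novel00209 from 421584 to 422067 on the plus strand with exons of 126 and 251 bases. Their introns are of like size, 108 and 107 bases. The plus strand locus stood at 652, 1213 and 1389 FPKM in low ammonia and 619, 730.0 and 914 in high ammonia. The minus strand locus stood at 618, 926 and 937, and at 584, 907 and 719. Library 1 of each group was the lowest for both loci. Neither passed the test, with log2 differences of -0.47 (SE 0.30, limma adjusted p = 0.458) and -0.16 (SE 0.24, limma adjusted p = 0.758).

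For the effect of ammonia, the test was run on log2(FPKM + 1) over the whole table, on 11717 features that reached 1 FPKM in at least 3 libraries, and 544 single-transcript loci were among them. At a Benjamini-Hochberg adjusted p below 0.05, 1 of the 544 rose (0.184%, against 0.410% of all features tested) and 4 fell (0.735%, against 0.376% of all). How far these shares lie from the background rests on 1 and 4 loci and was not tested. Of the 4, Novel01241 reached 1 FPKM in low ammonia only, so it entered through the group where it was higher. Novel04157, which rose, and Novel06964, which fell, reached 1 FPKM in every library of their higher group only. Their entry therefore also rested on that group. The median log2 difference was -0.16 (quartiles -0.39 and 0.11), and 64.7% of the loci were below 0, beside a median of -0.13 and 66.3% over all features. With median-ratio scaling, which moved the median of all features to -0.01, that of these loci became -0.05. Groups did not overlap in 25 loci that were higher in high ammonia (4.60%, against 6.11% of all features) and in 96 that were lower (17.6%, against 18.7%), and after that scaling in 48 (8.82%, against 11.8%) and 59 (10.8%, against 11.9%). At an unadjusted p below 0.05 there were 90 loci (16.5%, against 17.2% of all features).

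**Figure D4:**
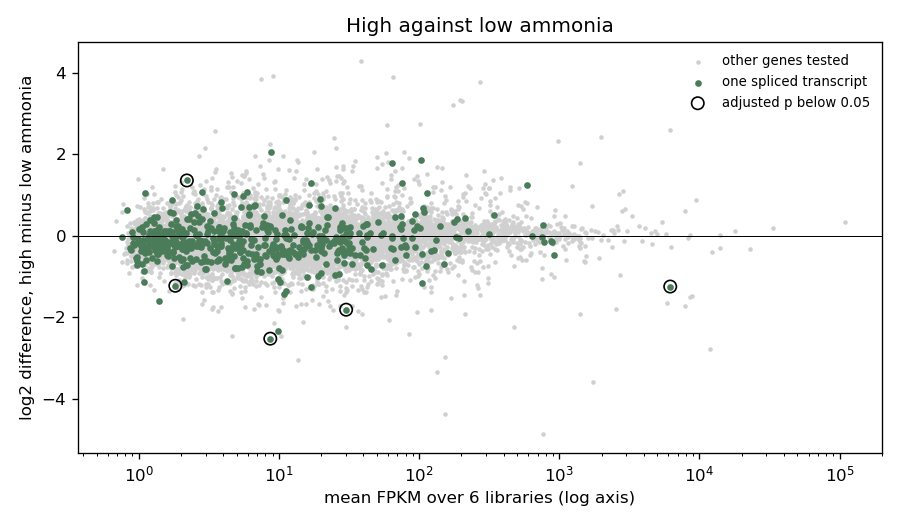
Log2 difference of high minus low ammonia, on log2(FPKM + 1), against mean FPKM over 6 libraries (log axis), for 544 loci with one spliced transcript (green) and all other features tested (grey). Circles mark the 5 loci with a limma adjusted p below 0.05, 1 higher and 4 lower in high ammonia.

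The locus that rose was Novel04157, on the minus strand of KB743493.1 (193707 to 195795), with exons of 1289 and 745 bases and an intron of 55 bases. It stood at 0.521, 0.847 and 1.04 FPKM in low ammonia, from 25 to 37 counts, and at 3.81, 3.85 and 3.12 in high ammonia, from 105 to 159 counts. In low ammonia only library 3 reached 1 FPKM, so the locus entered the test through the group where it was higher. The groups lay well apart, with means 4.48-fold different, and the locus rose by 1.36 on the log2 scale (SE 0.18, limma adjusted p = 0.0283). The size depended on the pseudocount of 1, and was 2.23 with voom on recovered counts. The next locus on the same strand, Novel04156 at 190725 to 192461, begins 1245 bases beyond its 3′ end and has several transcripts. It was likewise higher in each high ammonia library, at 6.19, 6.38 and 6.98 FPKM in low ammonia and from 9.79 to 10.4 in high ammonia, but did not pass (log2 difference 0.56, limma adjusted p = 0.111).

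Of the loci that fell besides Novel00092, Novel06964 had the largest log2 difference. It lies at 427 to 1009 of the minus strand of KB820385.1, with exons of 187 and 177 bases. Its FPKM was 9.20, 26.0 and 11.6 in low ammonia, from 70 to 203 counts, and 2.28, 2.05 and 0.824 in high ammonia, from 5 to 17 counts. The log2 difference was -2.53 (SE 0.39, limma adjusted p = 0.0390), with low ammonia library 2 above the other libraries of its group.

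Novel06848, on the plus strand of KB814285.1 (87 to 445) with exons of 89 and 161 bases, varied among the low ammonia libraries and hardly among the high ammonia ones. It stood at 30.5, 50.9 and 62.2 FPKM and at 12.1, 12.2 and 12.7, and fell by 1.81 on the log2 scale (SE 0.26, limma adjusted p = 0.0298). Novel01241 is 1 of 19 loci with an intron of 20 bases, the shortest length found, here between exons of 180 and 652 bases on the minus strand of KB742637.1 (345503 to 346354). It stood at 2.70, 3.30 and 2.84 FPKM against 0.763, 0.448 and 0.865, from 5 to 13 counts per high ammonia library, and fell by 1.23 on the log2 scale (SE 0.18, limma adjusted p = 0.0323). It reached 1 FPKM in low ammonia libraries only, so it entered the test through the group where it was higher. With a pseudocount of 0.1 the log2 difference was -1.98 and did not pass (limma adjusted p = 0.0512), and it passed in 3 of 13 alternatives. Neither Novel06964 nor Novel06848 shares its scaffold with another newly assembled locus.

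The 5 calls depended on the processing and on single libraries. Of the alternatives, Novel00092 passed in 8 of 14, Novel06848 in 7 of 14, Novel06964 in 6 of 14 and Novel04157 in 6 of 13. With no filter on low values 0 of the 5 passed. With voom on recovered counts Novel06964 was lost (limma adjusted p = 0.0723), and with voom and median-ratio library sizes Novel06848 (0.0577), Novel01241 (0.0577) and Novel06964 (0.0813) were. Without low ammonia library 1, 3 of the 5 passed, and without low ammonia library 2 or 3 or any 1 of the high ammonia libraries 0 of them did, although every one kept its direction with an unadjusted p of at most 0.00469.

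Other loci whose groups lay apart had a fold of similar size without passing. The largest such rise was that of Novel06833, from the first base of KB811758.1 to base 554, with a first exon of 29 bases. It stood at 29.1, 39.1 and 17.8 FPKM in low ammonia and at 86.9, 135 and 76.1 in high ammonia (log2 difference 1.78, SE 0.32, limma adjusted p = 0.0645). It passed in 4 of 14 other settings, among them both fits on recovered counts. Novel06880 (4 to 851 of KB817269.1, intron of 33 bases) stood at 35.3, 55.7 and 37.7 against 111, 132 and 78.4 FPKM, with 1.30 as its log2 difference (SE 0.25, limma adjusted p = 0.0744). It passed under 2 of 14 alternatives. Novel06113, a 3-exon locus with 198 bases of exon at 117 to 502 of KB745152.1, stood at 288, 215 and 628 against 873, 739.7 and 802 FPKM (log2 difference 1.24, SE 0.36, limma adjusted p = 0.157). It was the most abundant of these, and low ammonia library 3 was its nearest to the high ammonia values. Without that library it passed (limma adjusted p = 0.0418). Novel06818 and Novel04205 had log2 differences of 1.29 and 1.08 (limma adjusted p = 0.118 and 0.218). In Novel04205 low ammonia library 1, at 3.58 FPKM, came close to the lowest high ammonia value of 3.77, and without it the limma adjusted p was 0.0346. Low ammonia libraries 2 and 3 stood at 0.737 and 0.638 FPKM, so Novel04205 also entered the test through the group where it was higher.

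In the pair of largest falls that did not pass, low ammonia library 2 was the highest by far. Novel02921, at 360497 to 365083 of KB743062.1 with 3452 bases of exon, stood at 8.95, 36.4 and 7.98 FPKM in low ammonia and at 2.66, 2.35 and 1.06 in high ammonia (log2 difference -2.35, SE 0.54, limma adjusted p = 0.0994). Novel00654, at 306338 to 307574 of KB742520.1, stood at 1.16, 5.80 and 1.24 FPKM against 0.0668, 0.102 and 0, from 15 to 91 counts in low ammonia and at most 1 in high ammonia (log2 difference -1.60, SE 0.43, limma adjusted p = 0.132). The size was set by the pseudocount of 1, and was -3.84 with 0.1, -5.53 with 0.01 and -4.61 with voom, none past the threshold. Novel00654 also reached 1 FPKM in low ammonia libraries only, and entered the test through them. Its neighbour on the same strand, Novel00653, 1169 bases off, was at or near 0 in all libraries. Novel05445 and Novel02100 had still larger fitted rises, 2.05 and 1.87, but their groups overlapped (limma adjusted p = 0.213 and 0.247). They were picked after their values were seen.

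**Figure D5:**
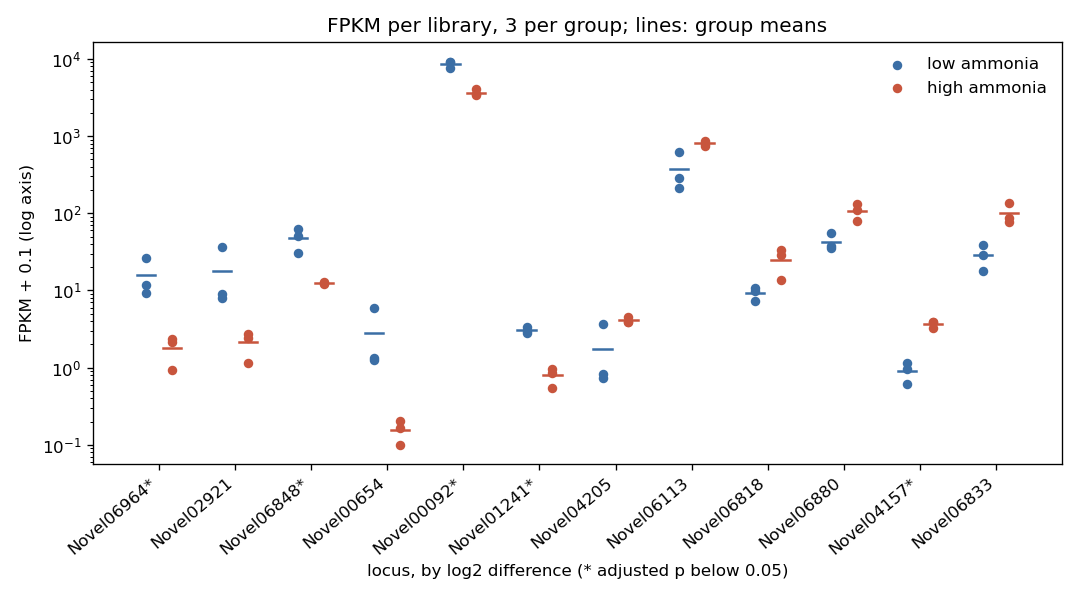
FPKM plus 0.1 (log axis) in each library for the 12 loci that passed the test or had the largest differences without overlap of groups, ordered by log2 difference; points are libraries (3 per group) and lines are group means. Stars mark limma adjusted p below 0.05, and Novel00092 lies between 3366 and 9254 FPKM, far above the others.

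A few loci had counts in a single group. In 22 loci every low ammonia library had a count and no high ammonia library did (0.644%, against 0.341% of all 23440 features), and in 3 loci it was the reverse (0.0878%, against 0.0939%). The 3 low ammonia libraries held more counts in total, 61573570 against 50586372, and 19 of these 25 loci had at most 10 counts over the 6 libraries. The one with most counts was Novel02281, at 336883 to 351510 of KB742888.1, with an intron of 8402 bases and 19, 143 and 3 counts in low ammonia. The limit that 0 allows in high ammonia is 3 counts over the group. Its pooled low ammonia level was 45.2 times that limit, yet low ammonia library 2 held 87.1% of its depth-scaled counts. Such ratios take the low ammonia level as exact and leave out the spread between libraries. Novel04940 (9 to 4936 of KB743870.1), which overlaps Novel04941 on the other strand, had 53, 3 and 2 counts in low ammonia. Its ratio to the limit was 15.9, with 89.6% of its depth-scaled counts in low ammonia library 1. Novel00355 had 9, 14 and 1 counts and Novel06209 had 7, 6 and 9, with ratios of 6.57 and 6.02. These loci were below the level tested, so no p-value is given.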

How the data were processed

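The members and lists were chosen with earlier results of these data known. Per the labels' protocols, liver RNA was taken up in Trizol and libraries came from Illumina's TruSeq RNA kit, a type that does not mark strand. Library numbers follow the order of the samples. Which aligner, assembler, counter, build and annotation were used is not given in the sources used here. The authors deposited FPKM for every feature and library, and a table of exon starts and ends, counted from 1, of 49205 exons on scaffolds whose build is not named. Counts were recovered as FPKM times exon length times the library total. Each library total was itself inferred from the FPKM and lengths of loci with 1 transcript. With 1 transcript the length is exact, and 100.0% of values of such loci were whole within 0.01. The totals were set on these same loci. Annotated genes, whose lengths are not listed, were given the shortest length between 50 and 40000 bases that made all 6 values whole. The same search returned the listed length in 98.6% of newly assembled loci that were tested.

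The main test was limma 3.58.1 (R 4.3.3) with a variance trend on log2(FPKM + 1), which understates changes of low values, over all features with at least 1 FPKM in 3 libraries, 2-sided, adjusted over 11717 features. Single values per library were compared by exact permutation. The test was checked on simulated counts with 1 setting of spread for every feature. That check does not cover loci with a larger spread or with most counts in 1 library. Alternatives were other pseudocounts, filters and scalings, no variance trend, voom on recovered counts and each library left out. The comparison by opposite-strand overlap was not among those planned, and its alternatives were added after the data were examined. Named loci were all that passed, the 6 largest differences per direction without overlap, the 6 most abundant, those with extreme structure, and up to 4 with counts in one group only. Of the identifiers, 0 matched the 26024 genes of the reference table, so no marker list could be read. Limits given for a count of 0 cover counting error only. Tables and permutation tests were handled in Python 3.11.15 with pandas 2.3.3 and numpy 2.4.6, rank correlations in scipy 1.17.1 and plots in matplotlib 3.10.9.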

Additional observations from a re-analysis of the deposited data

How the results depend on the processing

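Loci that rose and fell numbered 1 and 4. They were 0 and 0 with no filter on low values, 3 rising with median-ratio scaling, 2 rising with voom, 3 rising and 2 falling with voom and median-ratio library sizes, and, leaving out 1 library, 0 to 1 rising and 0 to 3 falling. The calls over all features under these alternatives are not given. Whether such changes are particular to these loci was therefore not tested. In limma, unadjusted p was below 0.05 in 203 of 2188 loci without a filter (9.28%, against 13.0% of all features), and in 69 to 83 of 544 in the 4 fits without 1 library that called 0 (12.7% to 15.3%, against 11.9% to 16.0%). The median log2 difference of -0.161 moved to -0.018 with no filter and to -0.049 with median-ratio scaling. The difference in median log2(FPKM + 1) from loci with several transcripts (-0.0193) became 0.448, and that from single-exon loci (-0.237) became 0.905, among loci with at least 1 FPKM in 3 libraries. On recovered counts the first difference was -0.667 with an exact p of 0.125. Without 1 library these differences ran from -0.0199 to -0.0187 and from -0.244 to -0.231, and that of loci with opposite-strand overlap from -29.0 to -28.2 points, where 5 libraries cannot give a p under 0.0625. The median intron was 210.0 bases among tested loci, and the median exon 171 bases there and 531 with 1 value per locus. The cause was not tested. Of 260 values of 19 named loci under alternatives, 38 passed the threshold, and 3 changed sign, all of Novel02311, at 0.02 with either median-ratio scaling and 0.05 without low ammonia library 3 (its range over libraries left out was -0.33 to 0.05). No paired analysis was possible because the labels give low and high ammonia a single replicate number in common. Depth limits low loci: 3 counts in 1 kb are 0.224 FPKM in the shallowest library.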

Other observations

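A small number of loci were nearly confined to 1 library. Of 843 single-transcript loci with at least 60 counts over the 6 libraries, 5 had over 80% of their depth-scaled counts in 1 of them. The rule was set after the values were seen, and all 5 had that library in low ammonia. It was not applied to the other features, so no share over all of them stands beside this count. Over all features tested, the highest value came from low ammonia libraries 1, 2 and 3 in 10.4%, 33.9% and 24.0%. In low ammonia library 2 the loci that met the rule were Novel02281, Novel00473 (bases 750971 to 783362 of KB742479.1) with 135 counts there and 1 to 5 in each other library, and Novel06096 (4069 to 7496 of KB745110.1) with 205 counts there, 28 in low ammonia library 3 and at most 3 elsewhere. Novel06095, which begins 260 bases beyond the 3′ end of Novel06096 on the same strand, stood at 0.0234, 0.872 and 0.367 FPKM in low ammonia and at 0 in high ammonia. The low ammonia libraries had the same order in both loci. Novel06260 had 55 of its 69 counts in low ammonia library 3, and Novel06976 (2 to 1987 of KB820669.1) had 120 of its 121 counts in low ammonia library 1.

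Among the tested loci the highest value came most often from low ammonia library 3 (192 of 544, 35.3%), and over all features from low ammonia library 2 (33.9%, with 24.0% for library 3). The spread between libraries was larger than over all tested features. Below 10 FPKM the median SD of log2(FPKM + 1) was 0.314 in low and 0.293 in high ammonia, against 0.235 and 0.221 over all, and from 10 FPKM up it was 0.374 and 0.230, against 0.250 and 0.183. Features were grouped by FPKM and not by count, which depends on exon length as well. The other newly assembled classes are not shown beside these loci, and the cause was not tested.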
